A study of Mus musculus with 12 samples.

Results

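The myosin heavy chains, the myosin light chains and the fast and slow skeletal forms of myosin-binding protein C were followed in RNA-seq profiles of mouse EDL, a fast muscle of the shank. The set was chosen by gene name: Myh4, Myh1, Myh2 and Myh7 (heavy chains), Myl1 and Myl3 (essential light chains), Mylpf and Myl2 (regulatory light chains), and Mybpc1 and Mybpc2. All 10 genes were found once in a table of 17752 genes. Levels are in FPKM, fragments per kilobase of transcript scaled by a factor for each library. All 10 passed the filter of a mean of at least 0.5 FPKM, which left 12744 genes for testing. The 12 libraries formed 4 groups of 3. These were male mice labelled WT and kept sedentary, mice labelled strNrip1-/- and kept sedentary, mice labelled WT and trained by voluntary wheel running, and mice labelled strNrip1-/- and trained in the same way. Mice entered the sedentary or training period at 8 weeks of age, and per the study the period lasted 8 weeks. The strNrip1-/- animals carried a floxed Nrip1 gene, which encodes the transcriptional coregulator RIP140, and Cre recombinase under the muscle creatine kinase (MCK) promoter, which is active in heart and skeletal muscle and not in the other cells of a muscle. The WT animals were littermates. Nothing in the labels says whether each library came from a separate mouse, so p-values measure the spread between these libraries.

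Myosin is the motor of the thick filament. Each myosin molecule holds a pair of heavy chains, which carry the ATPase and set the speed of shortening, and each heavy chain binds an essential and a regulatory light chain at its neck. Adult limb muscle of the mouse uses a fast set (Myh4 in type 2B fibers, Myh1 in type 2X, Myh2 in type 2A, with Myl1 and Mylpf) and a slow set (Myh7 in type 1 fibers, with Myl3 and Myl2). Myosin-binding protein C holds thick filaments in register and tunes cross-bridge cycling, with Mybpc2 as the fast and Mybpc1 as the slow skeletal form, although Mybpc1 is also made in fast fibers. EDL is known as a muscle of mostly type 2B and 2X fibers. Heavy-chain transcripts are therefore a common readout of fiber type.

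The labels and libraries were checked first. Nrip1 (chromosome 16, 76287400 to 76373827, minus strand, GRCm38) stood at 3.60, 2.55 and 3.84 FPKM in labelled WT sedentary and 2.53, 4.76 and 3.56 FPKM in labelled WT trained libraries. It stood at 15.5, 16.3 and 14.9 FPKM in labelled strNrip1-/- sedentary and 20.7, 14.9 and 16.6 FPKM in labelled strNrip1-/- trained libraries. The targeted gene was thus higher in the libraries labelled as lacking it. The loxP sites flank the exon that holds the coding sequence and leave the others in place, only a gene-level value was used, and whether the remaining exons carry this signal was not tested. Every direction by genotype below rests on the labels. The spacing of low values placed the scale factors of the libraries at 20.2 to 29.5 M fragments (M, mega). These equal the depths only if FPKM was scaled by depth, which was not tested. Fast-muscle markers (6 of 6 above 0.5 FPKM) summed to between 71904 and 111577 FPKM in every library, which fits the label of a fast muscle, whereas the 7 slow-muscle markers summed to 138.7 to 541.5 FPKM. Markers of adipocytes summed to 12.4 to 25.5 FPKM in labelled WT sedentary and 43.1 to 116 FPKM in labelled strNrip1-/- sedentary libraries, and to 35.1 to 76.9 and 43.8 to 113 FPKM in the trained groups. Sums for macrophages (23.2 to 43.0 FPKM), Schwann cells (49.9 to 110.5 FPKM), tendon (187 to 364 FPKM), smooth muscle (942.9 to 1205 FPKM), blood (723 to 1834 FPKM) and cardiac muscle (10.05 to 20.8 FPKM) overlapped between the labelled genotypes in at least 1 activity state. In trained muscle smooth-muscle sums did not overlap (942.9 to 1025 FPKM in labelled WT, 1127 to 1205 FPKM in labelled strNrip1-/-). Fast-muscle sums did not overlap there either (92439 to 111577 against 82527 to 86319 FPKM). No marker was at 0 in all libraries, none but Actn3 of the fast list was called by genotype or training in limma, and the part of these cells in the results below was not tested.

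The fast heavy-chain genes are near copies of each other, which bears on how reads are shared among them. Myh2 (67171027 to 67197517), Myh1 (67200052 to 67224575) and Myh4 (67238029 to 67260446) follow each other on the plus strand of chromosome 11 (GRCm38), in a cluster of 6 heavy-chain genes that runs over 293287 bases and also holds Myh3, Myh8 and Myh13. Only 2534 bases separate Myh2 from Myh1. Myh7 lies apart, on the minus strand of chromosome 14 (54970684 to 54994626). In the coding sequence Myh4 was 90.3% identical to Myh1 and 88.2% identical to Myh2, Myh1 was 91.1% identical to Myh2, and Myh7 was 77.4% to 77.9% identical to the other 3. A stretch of the motor domain shows the shared part and another stretch shows the part that tells them apart. The first is coding bases 1321 to 1380 of Myh4, where Myh4, Myh1 and Myh2 were the same at all 60 bases and Myh7 differed at 13, shown in capitals.
Myh4, Myh1 and Myh2: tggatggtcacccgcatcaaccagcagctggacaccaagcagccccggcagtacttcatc
Myh7: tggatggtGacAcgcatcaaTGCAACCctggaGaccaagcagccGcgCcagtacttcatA

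The second is coding bases 3832 to 3891 of Myh4, in the rod, the window of 60 bases with the most differences among the 3 fast genes. Capitals mark the 24 positions at which the 3 fast genes were not all alike and, in the Myh7 line, the 20 positions that differed from Myh4.
Myh4: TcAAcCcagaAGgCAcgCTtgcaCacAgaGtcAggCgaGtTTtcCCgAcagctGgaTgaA
Myh1: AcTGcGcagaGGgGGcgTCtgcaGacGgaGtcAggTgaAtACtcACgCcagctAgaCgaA
Myh2: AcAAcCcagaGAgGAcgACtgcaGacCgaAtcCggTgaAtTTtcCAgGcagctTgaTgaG
Myh7: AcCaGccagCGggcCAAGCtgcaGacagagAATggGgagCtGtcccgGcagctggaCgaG

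Even so, most of each transcript was distinct. Of all windows of 31 bases along the main transcript (GENCODE M21), 76.3% of Myh4, 64.8% of Myh1, 67.3% of Myh2 and 98.9% of Myh7 occurred in none of the other 3. Full-length windows of 150 bases, the length of 1 read of the pair, were shared by 0.256% of Myh4 with Myh1, by none with Myh2, and by 2.11% of Myh1 with Myh2. The longest exact run was 268 bases between Myh1 and Myh2 and 161 bases between Myh4 and Myh1. Reads in such runs were divided among the genes by the quantification, so the smaller fast isoforms, which sit beside a far more abundant Myh4, are the less certain. The light chains are no such problem, since Myl1 and Myl3 (71.6% identical), Mylpf and Myl2 (70.3%) and Mybpc1 and Mybpc2 (61.7%) shared no window of 31 bases in their main transcripts. A pseudogene named for the Mylpf family, Mylf-ps, was listed at 0.4997 to 4.397 FPKM against at least 9282 FPKM for Mylpf. The library kit did not keep strand, so reads from antisense transcripts within the cluster could not be told from those of the heavy chains.

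The 3 fast heavy-chain genes also share promoter sequence, printed here because their shares of the heavy chains are compared below. The longest run common to the 250 bases before the RefSeq starts of all 3 was 20 bases, AT-rich, and is set in capitals. Each line covers bases 250 to 51 before the start on the plus strand (GRCm38.p6).
Myh4, chr11:67237562-67237761: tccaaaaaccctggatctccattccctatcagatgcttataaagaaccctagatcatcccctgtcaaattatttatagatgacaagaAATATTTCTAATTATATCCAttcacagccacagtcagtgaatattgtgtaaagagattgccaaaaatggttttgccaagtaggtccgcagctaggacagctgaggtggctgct
Myh1, chr11:67199852-67200051: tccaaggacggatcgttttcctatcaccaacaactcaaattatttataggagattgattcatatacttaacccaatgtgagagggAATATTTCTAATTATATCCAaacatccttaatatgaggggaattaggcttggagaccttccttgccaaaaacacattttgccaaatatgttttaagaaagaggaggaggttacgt
Myh2, chr11:67170777-67170976: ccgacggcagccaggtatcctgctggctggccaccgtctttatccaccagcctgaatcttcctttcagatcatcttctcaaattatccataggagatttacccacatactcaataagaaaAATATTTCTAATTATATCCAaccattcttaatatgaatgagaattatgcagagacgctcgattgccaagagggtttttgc

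The run lay 163 to 144 bases before the start of Myh4, 165 to 146 before that of Myh1 and 130 to 111 before that of Myh2. On either strand it occurred in 3 of 32851 RefSeq promoter windows of 250 bases, which were these 3. The E-box CAGCTG was found once in the window of Myh4 and not in those of Myh1, Myh2 or Myh7. It was also found for Myl1, Mylpf and Mybpc1 and in a window of Myl2, and 13.0% of all windows held it. TATAAA was found 3 times for Myh4, in 2 places for Myh1 and not for Myh2, against 12.4% of all windows. CATTCC, searched on both strands like the others, occurred once each for Myh4 and Myh1 and not for Myh2, against 12.6%. Among the other members TATAAA lay in windows of Myl1 and Myl2, and CATTCC in windows of Myh7, Myl1, Myl3 and Mybpc2.

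Myh4 was the main heavy chain in all 12 libraries. It stood at 10521, 8442 and 9374 FPKM in labelled WT sedentary and at 7236, 6582 and 8385 FPKM in labelled strNrip1-/- sedentary libraries. Every sedentary library labelled strNrip1-/- was below every one labelled WT. The log2 fold change was -0.35 (SE 0.13, limma adjusted p 0.182), so the gene was not called. Trained libraries gave 10749, 10101 and 10783 FPKM when labelled WT and 8384, 8893 and 7045 FPKM when labelled strNrip1-/-. Again the groups did not overlap, with a log2 difference of -0.39 (SE 0.13, limma adjusted p 0.101), which was not called either. Fold changes and their tests are on the log2(FPKM + 0.5) scale, and a gene was called at an adjusted p under 0.05 and a fold change above 1.2. In bulk tissue, fewer fibers of a type and less RNA per fiber cannot be told apart.

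Myh1 was the next most abundant heavy chain. Its levels were 1033, 1336 and 1222 FPKM in labelled WT sedentary, 1529, 1178 and 1478 FPKM in labelled strNrip1-/- sedentary, 2009, 1911 and 1361 FPKM in labelled WT trained and 1906, 2249.7 and 2699.8 FPKM in labelled strNrip1-/- trained libraries. Values overlapped between the labelled genotypes in both states, and the log2 differences of 0.22 (SE 0.18, limma adjusted p 0.632) in sedentary and 0.38 (SE 0.18, adjusted p 0.243) in trained muscle were not called. Trained libraries were all above sedentary ones of the same labelled genotype. That difference was 0.54 on the log2 scale in labelled WT (SE 0.18, limma adjusted p 0.464) and 0.71 in labelled strNrip1-/- libraries (SE 0.18, adjusted p 0.211), and neither passed the test.

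Myh2, the heavy chain of type 2A fibers, was raised by labelled genotype in trained muscle. Its levels were 217, 209 and 217 FPKM in labelled WT trained against 329.8, 393 and 332 FPKM in labelled strNrip1-/- trained libraries. The groups lay well apart, and Myh2 rose by 0.71 on the log2 scale (SE 0.13, limma adjusted p 0.0109). Sedentary libraries stood at 165, 243 and 212 FPKM when labelled WT and 203, 186 and 233 FPKM when labelled strNrip1-/-, with means of 206.8 ± 39.2 and 207.2 ± 23.8 FPKM (SD, n = 3 each). There the difference was 0.01 on the log2 scale (95% confidence interval -0.28 to 0.30, limma adjusted p 0.976), and its sign turned with the scaling and with single libraries. The trained call was lost without labelled strNrip1-/- trained replicate 2 (0.63, limma adjusted p 0.0519) and was kept in the other fits.

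**Figure D1:**
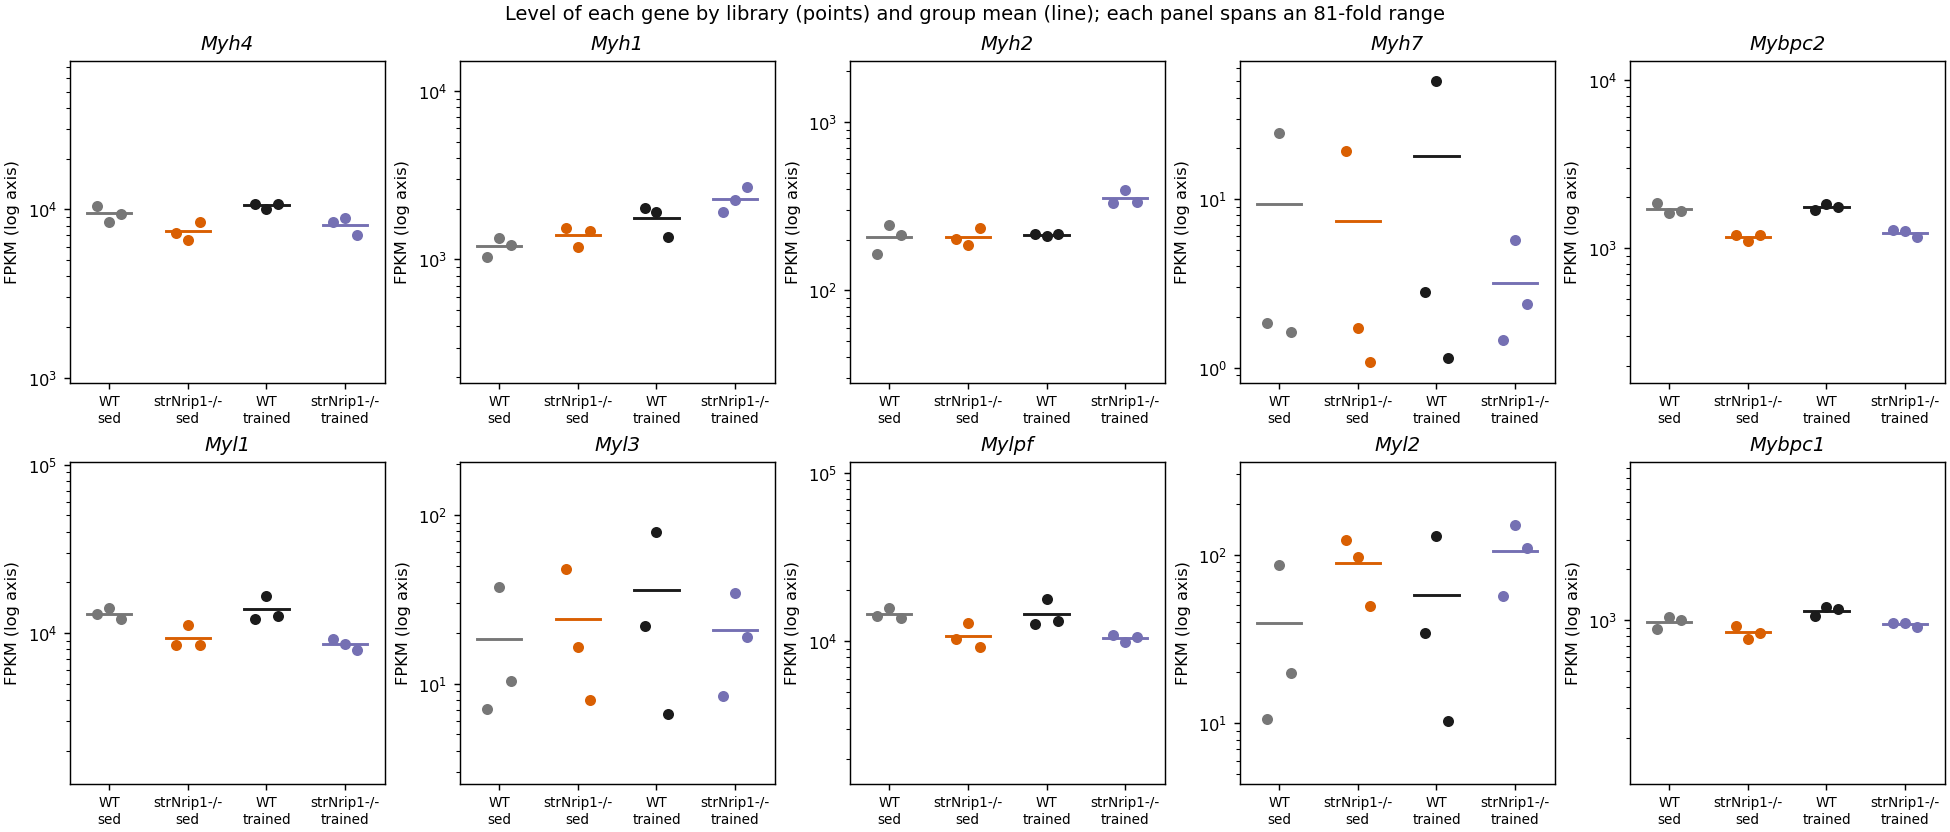
FPKM of each of the 10 genes (log axis, the same fold range in every panel) by labelled group, with 1 point per library and a line at the group mean; sed, sedentary. Myh2 in the labelled strNrip1-/- trained group (329.8 to 393 FPKM) lies above all other groups, and Mybpc2 is lower in both labelled strNrip1-/- groups than in either labelled WT group, whereas Myh7, Myl3 and Myl2 scatter widely within groups.

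Whether the isoforms changed in proportion was examined with their shares of the summed FPKM of Myh4, Myh1, Myh2 and Myh7, which do not depend on how a library was scaled. Shares were tested by exact two-sided permutation of genotype labels within each state, or of training labels within each genotype (400 arrangements, smallest possible p 0.005), with adjustment over the 14 share tests. The share of Myh4 was 89.8%, 84.0% and 86.7% in labelled WT sedentary and 80.5%, 82.8% and 83.0% in labelled strNrip1-/- sedentary libraries. In trained muscle it was 82.8%, 82.3% and 87.2% in labelled WT and 78.9%, 77.1% and 69.9% in labelled strNrip1-/- libraries. The labelled genotypes did not overlap in either state, and the share of Myh4 fell by 6.77 percentage points with labelled strNrip1-/- (exact p 0.005, adjusted p 0.0233). By state the difference was -4.71 points in sedentary and -8.83 points in trained muscle.

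The share of Myh1 moved in the opposite direction. It was 8.82%, 13.3% and 11.3% in labelled WT sedentary, 17.0%, 14.8% and 14.6% in labelled strNrip1-/- sedentary, 15.5%, 15.6% and 11.01% in labelled WT trained and 17.9%, 19.5% and 26.8% in labelled strNrip1-/- trained libraries. This share rose by 5.87 points with labelled strNrip1-/- (exact p 0.005, adjusted p 0.0233). Shares add up to the whole, so a lower share of Myh4 means a higher share of the others, whatever their levels. In level the heavy chains summed to a mean of 10859 FPKM in labelled WT and 9010 FPKM in labelled strNrip1-/- sedentary libraries. Trained libraries gave 12537 and 10747 FPKM. The sums overlapped in sedentary muscle (10046 to 11721 FPKM in labelled WT, 7947 to 10096 FPKM in labelled strNrip1-/-). In trained muscle they did not (12271 to 12978 against 10079 to 11541 FPKM). Unlike the shares, these sums depend on the scaling between libraries, and they were not tested. The ratio of Myh4 to Myh1 ran from 6.32 to 10.2 in labelled WT sedentary libraries and from 2.61 to 4.40 in labelled strNrip1-/- trained libraries, the groups farthest apart. Leaving out any 1 library kept the genotype calls on the Myh4 and Myh1 shares, with adjusted exact permutation p from 0.0175 to 0.0467.

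Training moved the same shares in the same direction. Trained libraries had a share of Myh4 lower by 4.77 points (exact p 0.02, adjusted p 0.04) and a share of Myh1 higher by 4.40 points (exact p 0.02, adjusted p 0.04). Myh4 and Myh1 hold most of the sum, so their share tests are not independent. In level Myh4 was not lower with training (log2 0.16 in labelled WT, 0.13 in labelled strNrip1-/-), and Myh1 was higher (0.54 and 0.71), none of them called. In labelled WT the trained and sedentary shares overlapped for Myh4 (82.3% to 87.2% against 84.0% to 89.8%) and for Myh1 (11.01% to 15.6% against 8.82% to 13.3%). In labelled strNrip1-/- libraries neither share overlapped. The Myh4 difference was -2.71 points in labelled WT and -6.83 points in labelled strNrip1-/- libraries, and a difference between these was not tested. Both training calls were kept only without labelled WT sedentary replicate 2, labelled WT trained replicate 3 or labelled strNrip1-/- trained replicate 1, and each of the other 9 libraries, when left out, brought the adjusted exact permutation p above 0.05, to 0.12 at most. On the log2 odds of the share they were 0.06 and 0.0583.

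Myh2 held a small share. It was 1.41%, 2.42% and 1.96% in labelled WT sedentary, 2.26%, 2.34% and 2.31% in labelled strNrip1-/- sedentary, 1.67%, 1.71% and 1.76% in labelled WT trained and 3.11%, 3.40% and 3.30% in labelled strNrip1-/- trained libraries. Labelled genotypes overlapped when sedentary and lay far apart when trained. The share rose by 0.964 points with labelled strNrip1-/- (exact p 0.02, adjusted p 0.04), and this call was kept only without labelled WT sedentary replicate 2, labelled WT trained replicate 3 or labelled strNrip1-/- trained replicate 1. By training the difference of 0.374 points did not pass (exact p 0.13, adjusted p 0.202).

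**Figure D2:**
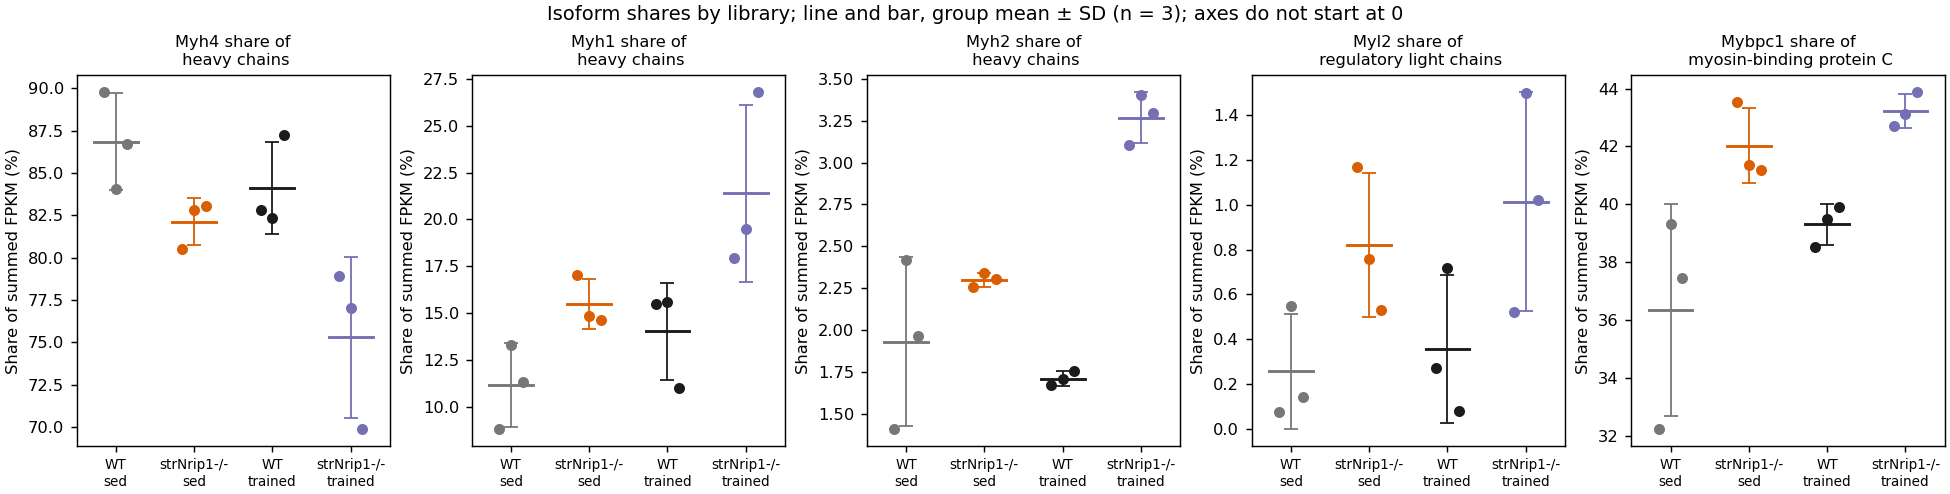
Shares of the summed FPKM in percent by labelled group for Myh4, Myh1 and Myh2 among the 4 heavy chains, Myl2 among Mylpf and Myl2, and Mybpc1 among Mybpc1 and Mybpc2 (points, libraries; line and bar, mean ± SD, n = 3; axes do not start at 0). In the labelled strNrip1-/- trained group Myh4 is lowest, at 69.9% to 78.9%, and Myh1 highest, at 17.9% to 26.8%.

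Myh7 and Myl3 varied widely between libraries of the same group. Myh7, the heavy chain of type 1 fibers, stood at 1.85, 24.8 and 1.64 FPKM in labelled WT sedentary, 19.4, 1.72 and 1.07 FPKM in labelled strNrip1-/- sedentary, 2.81, 50.0 and 1.13 FPKM in labelled WT trained and 1.46, 5.74 and 2.38 FPKM in labelled strNrip1-/- trained libraries. It reached 19.4 FPKM or more in 3 libraries of 3 different groups and was at most 5.74 FPKM in the other 9. Even the lowest level rested on about 163 fragments, so counting error is a small part of this spread. At most 0.407% of heavy-chain FPKM came from Myh7 in any library. Its log2 fold change by labelled genotype was -0.29 (95% confidence interval -3.29 to 2.71, limma adjusted p 0.952) in sedentary and -0.98 (-3.99 to 2.02, adjusted p 0.752) in trained muscle, intervals that include large changes either way, and the sign turned with single libraries. The share of Myh7 differed by -0.0634 points by genotype (exact p 0.535, adjusted p 0.624) and by -2.3e-05 points by training (exact p 0.995, adjusted p 0.995).

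Tnnt1 and Tnni1, slow troponin genes that are not part of the set, were high in the same 3 libraries. Their sum was 83.1 FPKM in labelled WT sedentary replicate 2, 79.7 FPKM in labelled strNrip1-/- sedentary replicate 1 and 157.6 FPKM in labelled WT trained replicate 2, and at most 48.4 FPKM elsewhere. Over the 12 libraries the genes most like Myh7, among 6839 non-member genes averaging 5 FPKM or more, were Tnnt1 (Pearson r 0.975), Tnni1 (0.962) and Tnnc1 (0.936). In these 3 libraries Myh4 stood at 8442, 7236 and 10101 FPKM, the lowest level of the group in both labelled WT libraries, and each of the 3 had the lowest Myh4 share of its group (84.0%, 80.5% and 82.3%). The part of slow fibers in the Myh4 shares was not tested beyond leaving these libraries out, which gave a difference by genotype of -7.52 points (adjusted exact permutation p 0.0583). With fewer libraries there are fewer arrangements and the smallest possible p is larger. That p therefore cannot decide whether the call depends on these libraries.

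The slow essential light chain Myl3 moved with Myh7 (r 0.918 over the 12 libraries). Its levels were 7.02, 37.5 and 10.3 FPKM in labelled WT sedentary, 47.6, 16.6 and 7.98 FPKM in labelled strNrip1-/- sedentary, 22.0, 79.4 and 6.60 FPKM in labelled WT trained and 8.48, 34.5 and 19.0 FPKM in labelled strNrip1-/- trained libraries. All groups overlapped. By labelled genotype its log2 fold change was 0.39 (SE 0.92, limma adjusted p 0.902) in sedentary and -0.35 (SE 0.92, adjusted p 0.879) in trained muscle. Its share of the essential light chains, at most 0.554%, differed by 0.0687 points by genotype (exact p 0.535, adjusted p 0.624) and by 0.0391 points by training (exact p 0.73, adjusted p 0.786).

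Myl2, the slow regulatory light chain, followed Myh7 less closely (r 0.587). It stood at 10.6, 87.4 and 19.8 FPKM in labelled WT sedentary and at 121.5, 97.5 and 49.7 FPKM in labelled strNrip1-/- sedentary libraries. Trained libraries gave 34.4, 128 and 10.3 FPKM when labelled WT and 57.0, 151 and 109.5 FPKM when labelled strNrip1-/-. The labelled genotypes overlapped in both states. The lowest of the 6 labelled strNrip1-/- libraries was at 49.7 FPKM, and some of the 6 had Myh7 near 1 or 2 FPKM. Labelled WT libraries passed 49.7 FPKM, a level taken from these same data, in the 2 that were high in Myh7. Myl2 per Myh7 was 3.53 to 12.1 in labelled WT and 6.26 to 56.7 in labelled strNrip1-/- sedentary libraries, and 2.57 to 12.3 against 26.3 to 46.1 in the trained groups. The log2 fold change was 1.64 (SE 0.88, limma adjusted p 0.403) in sedentary and 1.436 (SE 0.88, adjusted p 0.398) in trained muscle, so the level was not called. With 1 library left out these ran from 0.999 to 2.49 and from 0.56 to 2.35, lowest without labelled WT sedentary replicate 1 and labelled WT trained replicate 3. As a share of the regulatory light chains Myl2 rose from 0.256% ± 0.256 to 0.819% ± 0.322 in sedentary and from 0.356% ± 0.329 to 1.01% ± 0.487 in trained muscle (SD, n = 3 each), by 0.611 points (exact p 0.02, adjusted p 0.04). That call was kept only without labelled WT sedentary replicate 2 or labelled strNrip1-/- trained replicate 1 and was lost without any other library, on the log2 odds scale (adjusted exact p 0.056) and without the 3 libraries high in Tnnt1 and Tnni1 (0.688 points, adjusted exact p 0.0778). By training the share differed by 0.147 points (exact p 0.48, adjusted p 0.624).

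**Figure D3:**
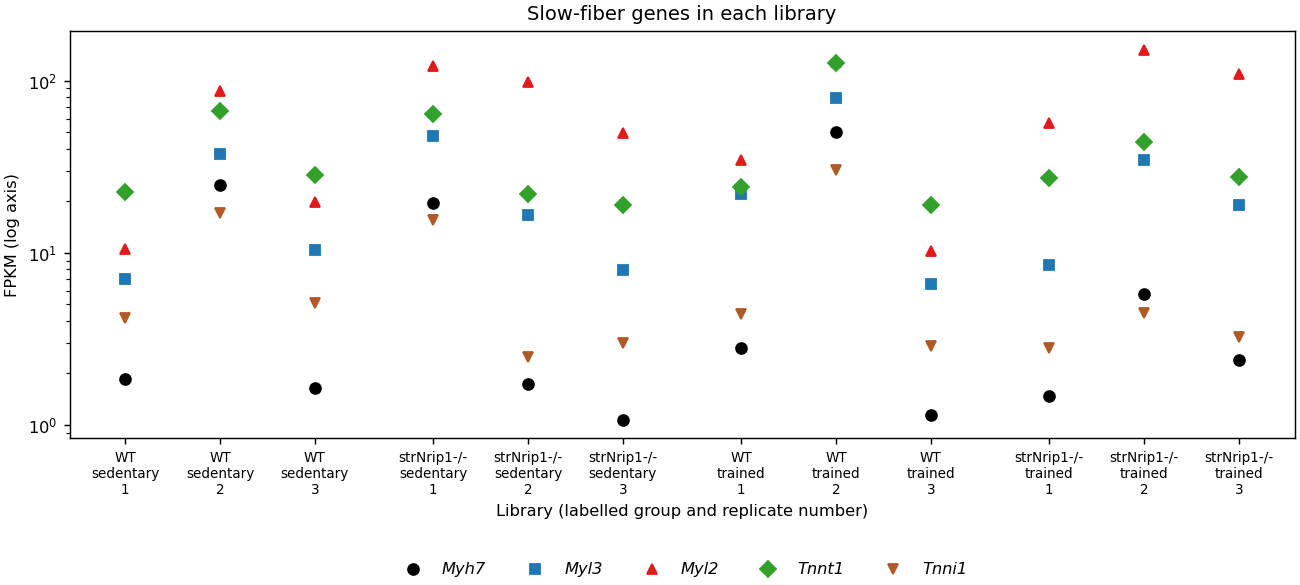
FPKM (log axis) of the slow-fiber genes Myh7, Myl3, Myl2, Tnnt1 and Tnni1 in each of the 12 libraries, named by labelled group and replicate number. Myh7 peaks at 24.8, 19.4 and 50.0 FPKM in labelled WT sedentary 2, labelled strNrip1-/- sedentary 1 and labelled WT trained 2. Myl2 (red) runs from 49.7 to 151 FPKM in labelled strNrip1-/- and from 10.3 to 128 FPKM in labelled WT libraries.

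The fast light chains were the most abundant members. Myl1, whose gene makes both fast essential light chains by alternative first exons, stood at 13006, 14016 and 12060.0 FPKM in labelled WT sedentary and 8536, 11106 and 8454 FPKM in labelled strNrip1-/- sedentary libraries. The groups did not overlap, but the log2 difference of -0.49 (SE 0.15, limma adjusted p 0.111) was not called. In trained muscle it was at 12174, 16610.2 and 12693 FPKM in labelled WT and 9280.0, 8599 and 7947 FPKM in labelled strNrip1-/- libraries, and Myl1 fell by 0.67 on the log2 scale (SE 0.15, limma adjusted p 0.0229). This call was lost without labelled WT trained replicate 2 (adjusted p 0.0506) or labelled strNrip1-/- trained replicates 2 (0.0809) or 3 (0.1), with quantile normalization (0.0908), without the filter (0.0698), with only the 6 trained libraries (0.0528) and without the 3 libraries high in Tnnt1 and Tnni1 (0.0898), all limma values. The sedentary difference passed when labelled strNrip1-/- sedentary replicate 2 was left out (-0.61, limma adjusted p 0.0462) and when libraries were scaled to the same sum of nuclear genes (-0.40, adjusted p 0.0146). It also passed with the replicate number as a block (-0.49, limma adjusted p 0.0467). Scaling to the same FPKM sum, which shifted the median of all genes by -0.14, gave -0.64 (limma adjusted p 0.00164).

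Mylpf, the fast regulatory light chain, ran beside Myl1 (r 0.966 over the 12 libraries). It stood at 14096, 15808 and 13704 FPKM in labelled WT sedentary, 10291.5, 12775 and 9282 FPKM in labelled strNrip1-/- sedentary, 12697, 17713 and 13142 FPKM in labelled WT trained and 10835, 9927 and 10608 FPKM in labelled strNrip1-/- trained libraries. Labelled genotypes did not overlap in either state. The log2 fold changes were -0.44 (SE 0.15, limma adjusted p 0.162) in sedentary and -0.46 (SE 0.15, adjusted p 0.103) in trained muscle and were not called, although they passed when libraries were scaled to the same sum of nuclear genes (-0.36, adjusted p 0.0225, and -0.42, adjusted p 0.00884, limma). With the same FPKM sum they passed as well (-0.60, limma adjusted p 0.00145, and -0.39, adjusted p 0.0114). Quantile normalization, which gives the most abundant genes of all libraries the same values, brought the trained differences of Myh4 to -0.04, Mylpf to -0.09 and Myl1 to -0.32. Mylpf per Myl1 stayed between 1.04 and 1.33 in all 12 libraries. Genes of the mitochondrial genome held 42.2% to 44.6% of the FPKM in labelled WT sedentary and 51.2% to 52.8% in labelled strNrip1-/- sedentary libraries, and 43.7% to 47.3% in the trained groups.

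Myosin-binding protein C gave the clearest difference in level. Mybpc2, the fast form (chromosome 7, 44501699 to 44524656, minus strand), stood at 1862, 1603 and 1664 FPKM in labelled WT sedentary and 1190.0, 1098 and 1196 FPKM in labelled strNrip1-/- sedentary libraries. It fell by 0.56 on the log2 scale (SE 0.08, limma adjusted p 0.00344). In trained muscle the levels were 1677, 1820.4 and 1746 FPKM in labelled WT and 1284, 1265 and 1159 FPKM in labelled strNrip1-/- libraries. It fell there by 0.50 (SE 0.08, limma adjusted p 0.00472), and within each genotype the trained and sedentary values overlapped. Leaving out any 1 library kept both calls, with limma adjusted p of 0.0310 at most. With only the 6 sedentary libraries the sedentary call reached an adjusted p of 0.0503.

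Mybpc1, the slow form, differed less. Its levels were 886, 1038 and 996 FPKM in labelled WT sedentary, 918, 775 and 837 FPKM in labelled strNrip1-/- sedentary, 1050.1, 1189 and 1159 FPKM in labelled WT trained and 956, 959 and 906 FPKM in labelled strNrip1-/- trained libraries. The log2 fold change was -0.21 (SE 0.09, limma adjusted p 0.261) in sedentary, where the groups overlapped, and -0.27 (SE 0.09, adjusted p 0.0988) in trained muscle, where they did not. The latter passed after quantile normalization alone (-0.43, limma adjusted p 0.0432). Mybpc1 was itself lower in mean level, but by less than Mybpc2. The share of Mybpc1 thus rose from 36.3% ± 3.67 to 42.0% ± 1.31 in sedentary and from 39.3% ± 0.717 to 43.2% ± 0.595 in trained muscle (SD, n = 3 each), by 4.81 points (exact p 0.005, adjusted p 0.0233). All 12 fits that left out 1 library kept this call. By training the share differed by 2.09 points (exact p 0.05, adjusted p 0.0875), which passed without labelled WT sedentary replicate 2 (2.83 points, adjusted exact p 0.035).

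**Figure D4:**
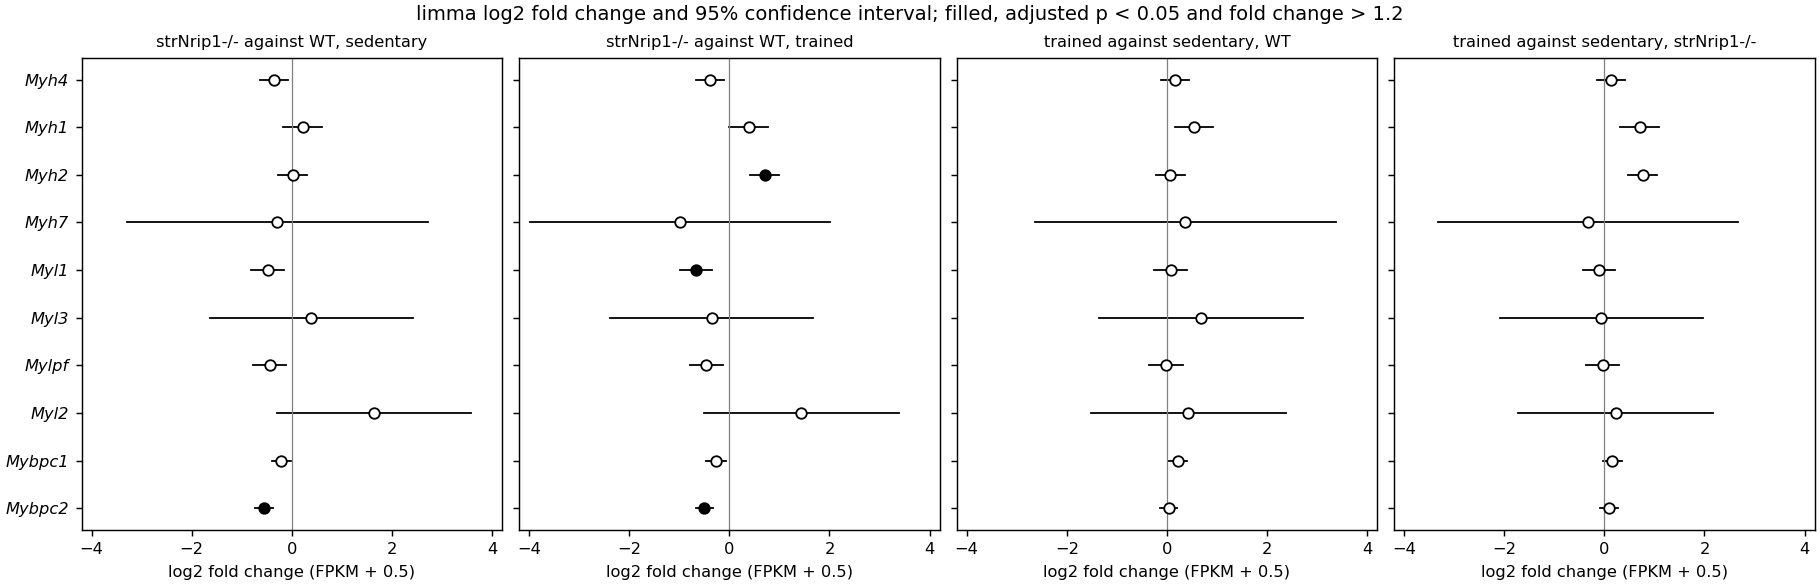
limma log2 fold change of log2(FPKM + 0.5) with its 95% confidence interval for the 10 genes in the 4 comparisons of labelled groups; filled points passed an adjusted p under 0.05 and a fold change above 1.2. Mybpc2 is filled in both comparisons by genotype (-0.56 and -0.50), Myl1 (-0.67) and Myh2 (0.71) in trained muscle alone, and no point is filled by training.

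Counted over the set, 1 of the 10 genes was called by labelled genotype in sedentary muscle, Mybpc2, against 3.51% of all genes tested. In trained muscle 3 were called, Myh2 higher and Mybpc2 and Myl1 lower, against 5.98% of all genes. The median log2 fold change of the 10 genes was -0.25 in sedentary and -0.37 in trained muscle, beside medians of 0.00 and 0.01 over all genes. The groups did not overlap for 4 of the 10 in sedentary muscle, all lower (Myh4, Myl1, Mylpf and Mybpc2), against 20.7% of all genes tested, and for 6 of the 10 in trained muscle, the same 4 with Mybpc1 lower and Myh2 higher, against 27.3%. Together the 10 genes held 6.73% ± 0.135 of the FPKM of nuclear genes in labelled WT sedentary and 5.40% ± 0.263 in labelled strNrip1-/- sedentary libraries, and 7.21% ± 0.279 and 5.44% ± 0.168 in the trained groups (SD, n = 3 each).

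By training no member was called in labelled WT (0% of all genes called) or in labelled strNrip1-/- libraries (0% called) in limma, while 1061 and 1544 of the 12744 genes had an unadjusted p under 0.05. At an unadjusted p under 0.05 there were 2 of the 10 in labelled WT, Myh1 and Mybpc1, and 2 in labelled strNrip1-/- libraries, Myh1 and Myh2. Those same genes were also the ones whose trained and sedentary groups did not overlap, all higher when trained, against 14.3% of all genes in labelled WT and 16.9% in labelled strNrip1-/- libraries. Myh4 differed by 0.16 (SE 0.13, limma adjusted p 0.789) and 0.13 (SE 0.13, adjusted p 0.720) on the log2 scale with training. Myh2 differed by 0.07 (SE 0.13, limma adjusted p 0.930) in labelled WT and by 0.76 (SE 0.13, unadjusted p 1.18e-04, adjusted p 0.113) in labelled strNrip1-/- libraries. When libraries were scaled to the same FPKM sum, the labelled strNrip1-/- training differences of Myh1 (0.88, adjusted p 0.0353) and Myh2 (0.94, adjusted p 0.0288) passed in limma, under a scaling that shifted the median of all genes by 0.16.

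The difference between those training effects was tested as an interaction. For Myh2 it was 0.69 on the log2 scale (SE 0.19, limma unadjusted p 0.00336, adjusted p 0.536), so a different response of the labelled genotypes to training was not called, nor for any other member, and 0% of all genes were called, with 989 at an unadjusted p under 0.05. Myh2 was the only member under an unadjusted p of 0.05 in this test. The genes whose pattern over the 12 libraries was most like that of Myh2 were Acss1 (r 0.909), Mlycd (0.904) and Wars (0.903), and those most like Myh4 were Strn3 (0.963), Tmtc1 (0.961) and Abcc9 (0.953). The likeness was the highest Pearson r of log2(FPKM + 0.5) among the 6839 genes, and these points share their group structure and scaling.

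The other sarcomeric heavy chains were low. The developmental heavy chains Myh3 (0.845 to 2.01 FPKM) and Myh8 (0.587 to 1.27 FPKM) and the extraocular Myh13 (3.31 to 5.75 FPKM), the neighbours of the fast genes on chromosome 11, stayed under 6 FPKM in all 12 libraries. So did the cardiac Myh6, at 2.73 to 5.91 FPKM, which stood above Myh7 in all but 4 libraries. Myh6 and Myh7 were 91.8% identical in the coding sequence and shared a run of 245 bases, so their reads could be split between them, which was not tested. Myh6 was at 4.51, 4.69 and 4.22 FPKM in the 3 libraries where Myh7 was at 24.8, 19.4 and 50.0 FPKM. Adding Myh3, Myh6, Myh7b, Myh8 and Myh13 to the sum left the Myh4 difference by genotype at -6.78 points (adjusted exact permutation p 0.02).

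Of 27 other myosin and thick-filament genes, 26 were listed and 25 tested. By labelled genotype 1 rose and 2 fell in sedentary muscle, against 3.51% of all genes called, and 1 rose and 3 fell in trained muscle, against 5.98%. The medians were -0.07 and -0.02 on the log2 scale against 0.00 and 0.01 over all genes. None was called by training or in the interaction in limma. There 2 (labelled WT), 5 (labelled strNrip1-/-) and 3 (interaction) had an unadjusted p under 0.05, beside 1061, 1544 and 989 of all 12744 genes. Myom3, an M-band protein of slow and intermediate fibers, rose by 0.82 (SE 0.15, limma adjusted p 0.0145), from 11.5 ± 2.47 to 20.5 ± 3.16 FPKM, in sedentary muscle. In trained muscle Myom3 rose by 1.16 (SE 0.15, adjusted p 0.00167), from 11.7 ± 1.02 to 26.9 ± 1.65 FPKM. Its family member Myom1 fell by 0.46 (SE 0.06, limma adjusted p 0.00191) and 0.39 (SE 0.06, adjusted p 0.00412), and Myom2, the M-band protein of fast fibers, fell by 0.36 (SE 0.07, adjusted p 0.0165) in trained muscle. Mylk2, the skeletal kinase that phosphorylates the regulatory light chain, fell by 0.68 (SE 0.10, limma adjusted p 0.00423) in sedentary and by 0.47 (SE 0.10, adjusted p 0.0211) in trained muscle.

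The thin filament gave the same counts in each state. Of 6 fast genes 1 fell by labelled genotype, Actn3, the alpha-actinin of fast fibers, and of 5 slow genes 1 rose, Actn2, the alpha-actinin found in all fibers. Over all genes 3.51% were called in sedentary and 5.98% in trained muscle. Actn3 fell by 0.90 (SE 0.08, limma adjusted p 2.52e-04), from 3286 ± 297 to 1752 ± 96.8 FPKM, in sedentary muscle and by 0.75 (SE 0.08, adjusted p 8.17e-04) in trained muscle. Actn2 rose by 0.55 (SE 0.13, limma adjusted p 0.0484), from 283 ± 46.7 to 412 ± 7.26 FPKM, and by 0.74 (SE 0.13, adjusted p 0.00965), from 332 ± 57.5 to 549.7 ± 10.2 FPKM. The median of the fast list was -0.38 in sedentary and -0.29 in trained muscle and that of the slow list -0.21 and -0.40, and no gene of either list was called by training or in the interaction in limma, where Actn2 in labelled strNrip1-/- libraries by training was the 1 case with an unadjusted p under 0.05.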

How the data were processed

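EDL muscle of mice in 4 labelled groups (3 libraries each) was profiled by RNA-seq. The library kit discards strand, and fragments were sequenced from both ends. Per the submitters' notes, the authors used Salmon 1.10.2 and DESeq2 1.44.0 with mm10 (GRCm38). The authors deposited expression as FPKM per gene and library, with transcripts summed to genes, and the annotation release is not given in the sources used here. Log2 fold changes and p-values for 4 comparisons, which the authors also deposited, were not used.

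FPKM is not a count, so log2(FPKM + 0.5) was fitted with limma 3.58.1 in R 4.3.3, with 4 group means over the 12 libraries, a mean-dependent variance prior and Benjamini-Hochberg adjustment over 12744 genes for each of 5 contrasts. All tests were two-sided. This scale understates changes of low genes. Isoform shares were tested by exact stratified permutation, which can reach p 0.005, whereas 3 against 3 libraries cannot go below 0.10. The limma step was tested on simulated data. The scale factor of each library came from low FPKM values among 1613 single-transcript genes. It was searched, together with the fragment length, for the best fit to whole fragments. Of the 355 to 410 values used per library, 99.0% to 99.7% then came to a whole fragment within 0.15, beside 30% by chance. A level of 3 fragments over an effective length of 2 kb corresponds to 0.0509 to 0.0742 FPKM, and this covers counting error only. No pair of replicates held identical values. Transcripts and positions came from GENCODE M21 and promoters from RefSeq (GRCm38.p6).

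The members and gene lists were chosen with earlier results of these data known. The genes named are the members, Nrip1, called genes of the lists, Myh3, Myh8 and Myh13, and the 3 genes most like each heavy chain, of which those for Myh1 are not reported here. Myh6, Myh7b, Tnnt1, Tnni1 and Mylf-ps were named after their values were seen. The alternatives were 2 other pseudocounts, 2 other filters, 3 scalings, a replicate block, a flat variance prior, fits on 6 libraries, each library left out in turn, log2 odds, a wider denominator and, added after seeing the data, leaving out the 3 libraries highest in Tnnt1 and Tnni1.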

Additional observations from a re-analysis of the deposited data

How the results depend on the processing

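Mybpc2 kept its direction in every fit and lost 1 call, in sedentary muscle with only the 6 libraries of that contrast. The number of the 10 genes called by labelled genotype in sedentary muscle was 3 with the same FPKM sum and 3 with the same nuclear FPKM sum (each time Mybpc2, Myl1 and Mylpf), 0 with only the 6 libraries, 2 with the replicate block and 1 to 2 with 1 library left out (2 without labelled strNrip1-/- sedentary replicate 2). In trained muscle it was 1 to 3 with 1 library left out, 1 without labelled strNrip1-/- trained replicate 2. By training in labelled strNrip1-/- libraries it was 2 with the same FPKM sum. That scaling shifted the median of all genes by -0.14, 0.06, -0.04 and 0.16 in the 4 comparisons and by 0.20 in the interaction. Differences in shares that passed before and not on the log2 odds scale were -0.45 (Myh4) and 0.47 (Myh1) by training, and 0.62 (Myh2) and 2.01 (Myl2) by genotype. Without the 3 libraries highest in Tnnt1 and Tnni1, an alternative chosen after seeing the data, the shares by genotype differed by -7.52 (Myh4), 6.41 (Myh1), 1.096 (Myh2), 0.688 (Myl2) and 5.23 points (Mybpc1) and by training by -5.43 (Myh4) and 4.93 points (Myh1), with adjusted exact p above 0.05 in a test with fewer arrangements, and that of Myh7 turned to 0.00716 by genotype and 0.00643 by training. The log2 fold changes of Myh7 and Myl3 in trained muscle then turned to 0.50 and 0.53. Myh2 in sedentary muscle turned to -0.14 with the same FPKM sum. The cause of each change was not tested.

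Leaving out 1 library at a time gave these ranges of the share differences in points: Myh4 by training -5.68 to -3.42, Myh1 by training 3.05 to 5.27, Myh2 by genotype 0.834 to 1.09, Myl2 by genotype 0.490 to 0.734, Mybpc1 by training 1.07 to 2.83, Myh7 by genotype -0.0976 to 0.00196 and by training -0.0654 to 0.0385, and Myl3 by genotype -0.00341 to 0.129 and by training -0.0208 to 0.111. For log2 fold changes that turned sign, the ranges were -0.14 to 0.14 (Myh2 by genotype, sedentary), -0.0836 to 0.19 (Myh2 by training, labelled WT), -1.43 to 0.88 and -1.98 to 0.50 (Myh7 by genotype, sedentary and trained), and -0.28 to 1.08 and -1.21 to 0.53 (Myl3, likewise).

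Correlations of the deviations from group means ran from -0.10 to 0.24 between same-numbered libraries, with 5 of 18 over 0.1. Between libraries of different number they ran from -0.25 to 0.20. Replicates 2 of labelled WT sedentary, labelled strNrip1-/- sedentary and labelled WT trained correlated with each other at 0.16, 0.195 and 0.24. With replicate 2 of labelled strNrip1-/- trained they gave -0.10, -0.03 and -0.05. The numbers were not taken as pairs, and whether they mark a shared batch was not tested. Share differences were the same with the replicate block, -6.77 and -4.77 points (Myh4), 5.87 and 4.40 (Myh1), 0.964 (Myh2), 0.611 (Myl2) and 4.81 (Mybpc1). The adjusted exact permutation p was 0.109 or 0.125, in a test of 64 arrangements against 400 without the block. With fewer arrangements the smallest possible p is larger, before and after adjustment over the share tests. These p-values therefore cannot decide whether the share calls depend on the block.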
